A study of Mus musculus with 6 samples.

Results

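The tetraspanin genes described here are 9 that Schwann cells, the glia of peripheral nerves, are known to express: Cd9, Cd81, Cd82, Cd63, Cd151, Tspan2, Tspan3, Tspan7 and Tspan15. They were chosen by name, with earlier results of these data known. All 9 of them were found among the 54838 genes of the count table and passed the filter on low counts. RNA of sciatic nerve was sequenced at postnatal day 3 in 3 libraries of conditional knockout mice (cKO; CnpCre, Actl6afl/fl) and 3 libraries of wild-type mice (WT), all labelled as strain C57 Bl. Actl6a encodes BAF53a, which resembles actin and belongs to the BAF complex that remodels chromatin, and the Cnp promoter that names the Cre driver is active in myelinating glia. Other cells of the nerve lie outside that lineage, so whole-nerve RNA holds transcripts of cells that the driver does not target. The labels do not say whether the WT mice carried a Cre or floxed allele, or whether a library came from 1 animal or several. The p-values therefore reflect only how much these libraries vary, which may include technical variation.

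Tetraspanins are small membrane proteins that bind each other and partner proteins, among them laminin-binding integrins, immunoglobulin superfamily proteins and the protease ADAM10. They thereby gather these partners into shared membrane domains, and several also follow them through endosomes into extracellular vesicles. In peripheral nerve, Schwann cells carry CD9, CD81 and CD82 on their surface, and the integrins that tetraspanins bind include the laminin receptors with which Schwann cells hold on to their basal lamina.

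In cKO nerves, 4 of the 9 tetraspanin transcripts were lower, 0 were higher and 5 were not called (edgeR quasi-likelihood F test, Benjamini-Hochberg adjusted p below 0.05 over 18775 genes tested). Cd9 was 5.46-fold and Cd82 2.58-fold lower, while Cd151 and Tspan3 were lower by less (1.42-fold and 1.37-fold). Of all genes tested, 18.8% were called, 8.55% higher and 10.3% lower. The median log2 fold change of the 9 genes was -0.19, beside 0.04 for all genes tested. The cKO and WT values did not overlap for 8 of the 9 genes, with 3 of them higher and 5 lower in cKO. Such a lack of overlap was frequent across the table, at 42.7% of all genes tested, 21% higher and 21.7% lower.

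The libraries held 31404107 to 32674317 counts in cKO and 33084003 to 36760296 in WT. Levels are given as CPM, the usual counts scaled to library size, with TMM factors. Actl6a itself read 42.4, 47.6 and 41.5 CPM in cKO nerves, against 48.6, 53.3 and 46.2 CPM in WT nerves. That difference was not called (log2 fold change -0.17, edgeR adjusted p = 0.243). All exons were counted, and no source used here says which of them the floxed allele removes, so this is a weak check of the labels. One library stood apart. In cKO replicate 2, genes of a skeletal muscle list took 6.58% of counts, against 0.538 and 0.641% in cKO replicates 1 and 3 and 0.403 to 0.585% in WT. Values without that library are given where it matters.

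Cd9 encodes a surface tetraspanin of myelinating Schwann cells that associates with integrins and growth factor precursors. The gene (ENSMUSG00000030342) lies on the minus strand at GRCm38 chr6:125460266-125494791. It read 324.9, 173.6 and 304.1 CPM in cKO nerves, against 1349, 1486 and 1545 CPM in WT nerves. The highest cKO library lay far below the lowest WT library, and cKO replicate 2 was the lowest of all. The means were 267.6 ± 82.0 CPM in cKO and 1459.8 ± 100.8 CPM in WT (SD, n = 3 each), a log2 fold change of -2.45 (SE 0.24, 95% interval -3.03 to -1.87, edgeR adjusted p = 0.0017). Without cKO replicate 2 and without each other library in turn, the log2 fold change ranged over -2.61 to -2.22 and the call held in 6 of 6 fits. Counting did not use strand, and 10.67% of the exonic bases of Cd9 are shared with Gm26728, an annotated gene on the opposite strand, so reads of both cannot be told apart there.

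Cd82, first named KAI1 as a suppressor of metastasis, encodes a tetraspanin that restrains cell migration and growth factor receptors in other cell types. The gene (ENSMUSG00000027215) lies on the minus strand at chr2:93419111-93463140. It read 28.0, 37.2 and 25.6 CPM in cKO nerves, against 78.6, 77.0 and 78.0 CPM in WT nerves. All cKO libraries were under the narrow WT range. The means were 30.3 ± 6.12 CPM in cKO and 77.9 ± 0.80 CPM in WT (SD, n = 3 each), a log2 fold change of -1.36 (95% interval -1.71 to -1.02, edgeR adjusted p = 0.0019). The call held in 6 of 6 fits that left out 1 library, with log2 fold changes of -1.54 to -1.26.

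Cd81 encodes the close relative of CD9 that binds the same immunoglobulin superfamily partners. The gene (ENSMUSG00000037706, plus strand, chr7:143052739-143067934) read 407.9, 379.9 and 409.3 CPM in cKO nerves, against 353.5, 368.4 and 379.1 CPM in WT nerves. The groups nearly met, at cKO replicate 2 and WT replicate 3. No difference was called (log2 fold change 0.12, 95% interval -0.09 to 0.33, edgeR adjusted p = 0.369), and the interval leaves room for a small difference in either direction.

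Cd151 encodes the tetraspanin that binds laminin-binding integrins most tightly. The gene (ENSMUSG00000025510, plus strand, chr7:141467392-141471473) read 130.2, 136.2 and 112.4 CPM in cKO nerves, against 172.5, 182.3 and 182.1 CPM in WT nerves. Every cKO library was under every WT library. The means were 126.3 ± 12.4 CPM in cKO and 179.0 ± 5.6 CPM in WT (SD, n = 3 each), a log2 fold change of -0.50 (95% interval -0.74 to -0.27, edgeR adjusted p = 0.0156). This call was lost without WT replicate 1, 2 or 3, when the adjusted p was 0.059 to 0.0774, and held without each cKO library. An opposite-strand gene, Gm10575, covers 7.04% of its exonic bases.

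Tspan3 encodes a widely expressed tetraspanin that was found in oligodendrocytes as a partner of the myelin protein OSP/claudin-11. The gene (ENSMUSG00000032324, minus strand, chr9:56131725-56165477) read 215.3, 252.1 and 214.1 CPM in cKO nerves, against 298.1, 308.6 and 329.1 CPM in WT nerves. The cKO values again lay under the WT values, with cKO replicate 2 nearest to them. Tspan3 thus had a log2 fold change of -0.46 (95% interval -0.70 to -0.21, edgeR adjusted p = 0.0258). It held in 1 of 6 fits that left out 1 library, the one without cKO replicate 2 (adjusted p = 0.000148), and over the 6 fits the adjusted p reached 0.116.

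**Figure D1:**
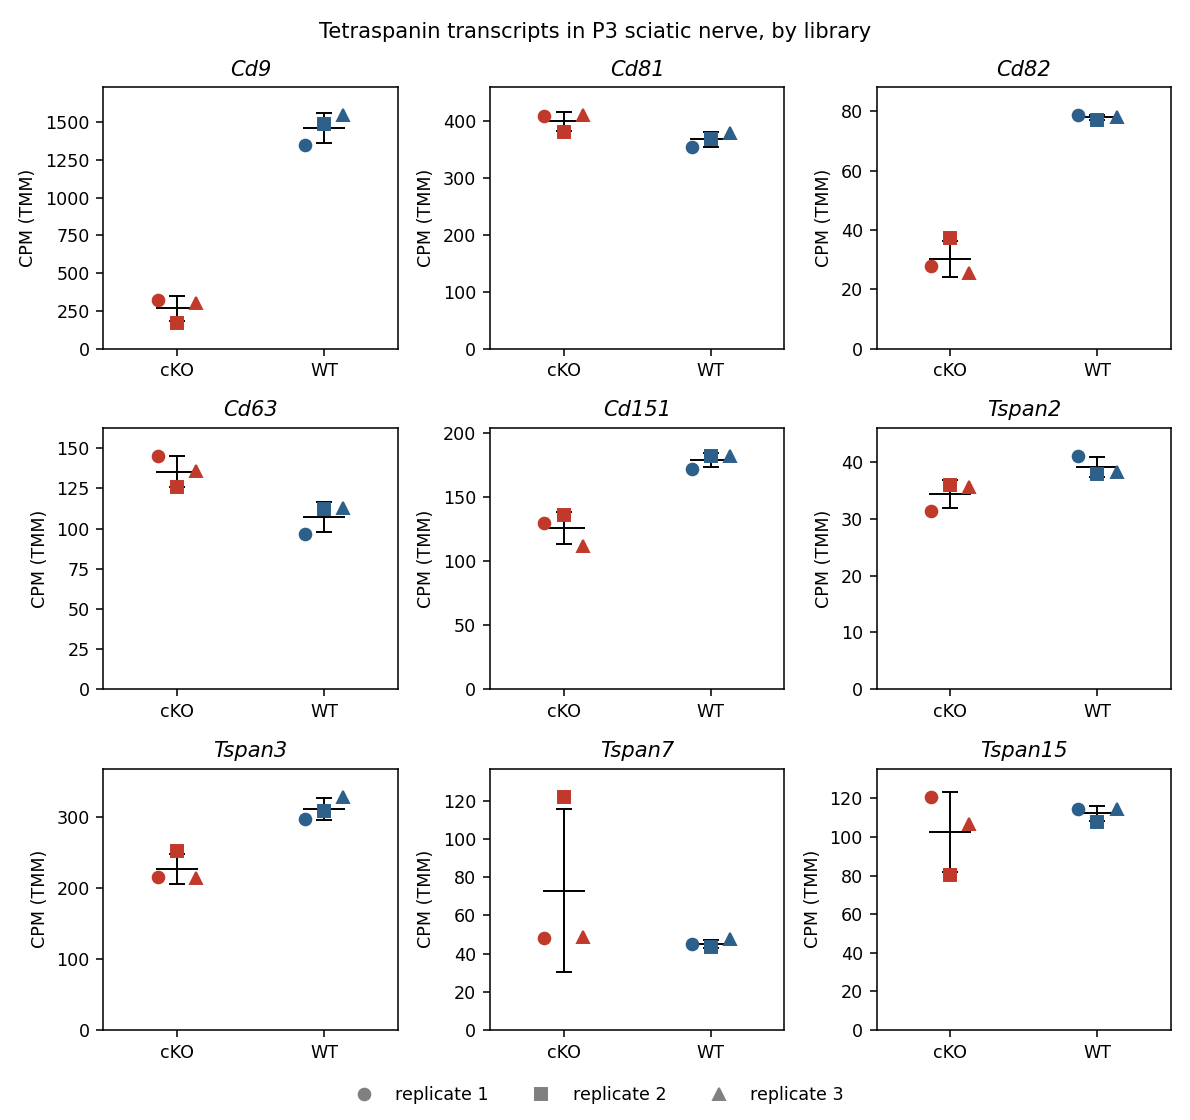
CPM, counts scaled to library size (vertical axes, linear, starting at 0, 1 panel a gene) of the 9 tetraspanin genes in each cKO library (left) and WT library (right), with the group mean and SD as bars and the replicates as different symbols. Cd9 and Cd82 show the widest gap between the groups relative to the WT mean, and Tspan7 shows 1 cKO library at 122.0 CPM above the other 5.

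The sequences in front of the 4 transcripts that were lower are shown so that their composition can be read beside the values. Each is the RefSeq window (GRCm38.p6) of 250 bases before and 50 bases after an annotated start, 5′ to 3′ on the strand of the gene. They lie at chr6:125494711-125495010 (minus strand) for Cd9, chr2:93462901-93463200 (minus) for Cd82, chr7:141467112-141467411 (plus) for Cd151 and chr9:56161021-56161320 (minus) for Tspan3. Capitals mark matches on either strand to 1 of 6 short motifs: the letters GGGCGG for the GC box, CCAAT for the box of that name, TATAAA for the TATA box, ACAAAG for the core that SOX factors bind, GGAATG for that of TEAD factors and GCGTGGG for that of EGR factors.
Cd9: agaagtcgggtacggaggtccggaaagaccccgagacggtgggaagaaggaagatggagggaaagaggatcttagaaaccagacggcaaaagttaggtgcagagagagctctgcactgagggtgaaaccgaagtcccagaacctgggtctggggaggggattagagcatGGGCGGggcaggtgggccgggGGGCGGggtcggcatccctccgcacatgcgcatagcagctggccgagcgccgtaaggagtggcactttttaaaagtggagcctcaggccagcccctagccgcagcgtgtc
Cd82: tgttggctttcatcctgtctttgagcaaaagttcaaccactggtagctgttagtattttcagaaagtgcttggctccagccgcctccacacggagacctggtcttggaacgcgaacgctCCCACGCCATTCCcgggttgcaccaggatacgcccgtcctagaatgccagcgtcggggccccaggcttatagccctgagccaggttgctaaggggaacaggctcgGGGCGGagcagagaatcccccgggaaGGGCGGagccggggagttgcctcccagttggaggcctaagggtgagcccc
Cd151: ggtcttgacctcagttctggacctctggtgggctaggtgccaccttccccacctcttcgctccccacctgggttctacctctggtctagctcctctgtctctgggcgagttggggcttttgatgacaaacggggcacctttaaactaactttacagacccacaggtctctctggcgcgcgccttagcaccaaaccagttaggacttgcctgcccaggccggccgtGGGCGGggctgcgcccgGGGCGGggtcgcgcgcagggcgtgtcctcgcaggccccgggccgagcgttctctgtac
Tspan3: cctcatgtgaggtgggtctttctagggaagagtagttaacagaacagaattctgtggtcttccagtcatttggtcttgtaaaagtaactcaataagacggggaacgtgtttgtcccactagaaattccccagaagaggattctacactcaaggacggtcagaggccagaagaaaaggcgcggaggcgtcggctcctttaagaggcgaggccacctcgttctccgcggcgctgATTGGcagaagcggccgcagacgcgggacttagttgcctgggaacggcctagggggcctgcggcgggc
Cd9, Cd82 and Cd151 each held 2 GC boxes, a motif present in 35.66% of 32851 RefSeq windows of this length. Cd82 also held an EGR core and a TEAD core, adjoining each other, and Tspan3 held 1 CCAAT match. Across all 9 genes the GC box was in 5 windows, CCAAT in 2 (37.41% of all windows), TATAAA in 1 (13.62%), the SOX core in 1 (18.71%), the TEAD core in 2 (14.66%) and the EGR core in 3 (5.038%). The start used for Tspan3 lies 4407 bases from the 5′ end of the gene in the count table, and that for Cd63 lies 8356 bases away, and RefSeq lists 4 windows for Cd82 and 2 each for Cd151 and Tspan2, of which the one nearest to that 5′ end was used. Other starts of these 5 genes were not searched. The ratio of observed to expected CpG was 0.69 for Cd9, 0.58 for Cd82, 0.65 for Cd151 and 0.84 for Tspan3, beside a median of 0.38 over all windows. Uncalled genes had like ratios, at 0.71 for Cd81, 0.65 for Tspan2, 0.77 for Tspan7 and 0.89 for Tspan15, except Cd63 at 0.33. A match describes letters only, and no binding was measured.

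Cd63 encodes the tetraspanin of late endosomes, lysosomes and extracellular vesicles. The gene (ENSMUSG00000025351, plus strand, chr10:128900989-128912822) read 145.2, 125.6 and 135.7 CPM in cKO nerves, against 96.6, 112.4 and 112.8 CPM in WT nerves. All cKO libraries were above all WT libraries, yet the difference was not called (log2 fold change 0.34, 95% interval 0.10 to 0.58, edgeR adjusted p = 0.0596). Without cKO replicate 2 it was called higher (log2 fold change 0.39, edgeR adjusted p = 0.00306). Of the 50-base words in its transcripts, 11.1% also occur in other genes, Cd63 pseudogenes among them. Macrophages also make CD63, and 9 of 12 macrophage markers were called higher and 0 lower, and the list summed to 0.110 to 0.190% of counts in cKO against 0.0761 to 0.0881% in WT. Their part in the Cd63 value was not tested.

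Tspan2 encodes a tetraspanin first described in oligodendrocytes and later in other cells. The gene (ENSMUSG00000027858, plus strand, chr3:102734529-102801513) read 31.4, 35.8 and 35.6 CPM in cKO nerves, against 41.0, 37.8 and 38.2 CPM in WT nerves. The groups did not overlap, but the gap between them was smaller than the SD of the cKO libraries (2.49 CPM). A log2 fold change of -0.19 (95% interval -0.40 to 0.03, edgeR adjusted p = 0.194) was not called.

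Tspan7 encodes a tetraspanin of neurons and other tissues, and Tspan15 one of the TspanC8 proteins that escort ADAM10 to the cell surface. Tspan7 (ENSMUSG00000058254, plus strand, chrX:10485158-10596605) read 47.9, 122.0 and 48.9 CPM in cKO nerves, against 44.9, 43.2 and 47.4 CPM in WT nerves. The high value was that of cKO replicate 2, the library with the high share of muscle transcripts. The log2 fold change was 0.69 with all libraries (95% interval -0.29 to 1.67, edgeR adjusted p = 0.269) and 0.10 without that library, and neither was called. Tspan15 (ENSMUSG00000037031, minus strand, chr10:62185396-62231251) read 121.0, 80.2 and 106.5 CPM in cKO nerves, against 114.4, 107.9 and 114.3 CPM in WT nerves. The groups overlapped, and the lowest value was again that of cKO replicate 2. Tspan15 had a log2 fold change of -0.13 (95% interval -0.48 to 0.22, edgeR adjusted p = 0.564) with all libraries and 0.02 without cKO replicate 2.

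**Figure D2:**
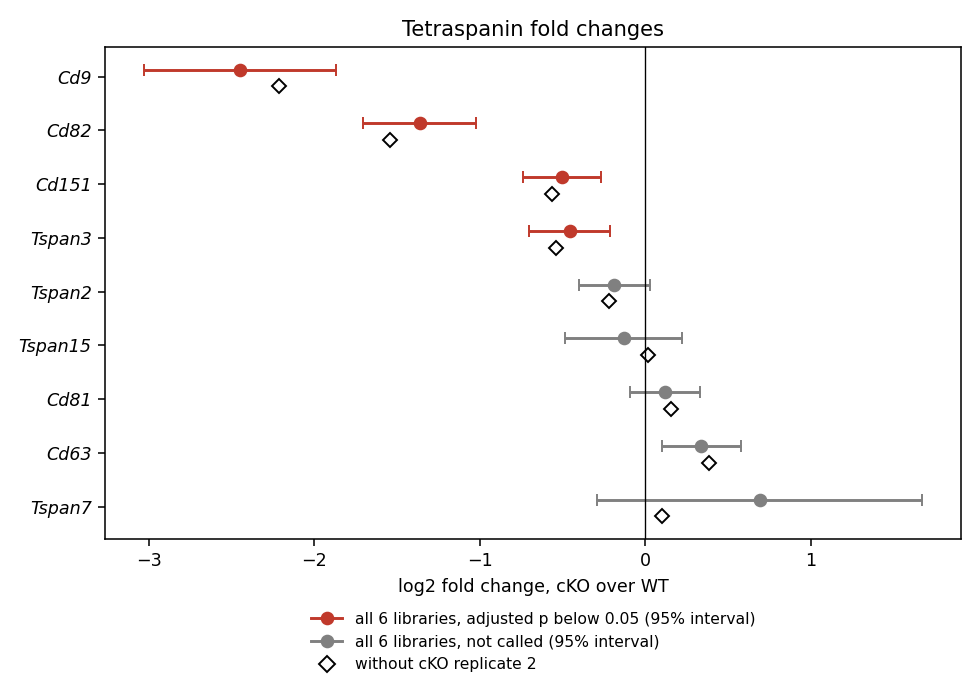
Log2 fold change of cKO over WT (horizontal axis) with its 95% interval for each of the 9 tetraspanin genes, in red where called and grey where not, with open diamonds for the value without cKO replicate 2. The intervals of Cd9 and Cd82 lie farthest below 0, and those of Cd81, Tspan2, Tspan7 and Tspan15 include 0.

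To compare levels between genes, counts were also divided by exonic length (FPKM, counts scaled to both exonic length and library size, computed here). In cKO nerves the order of mean FPKM was Cd81 (138.6), Cd9 (130.9), Tspan3 (53.2), Cd151 (46.1), Cd63 (36.8), Tspan15 (12.5), Tspan7 (10.3), Cd82 (10.1) and Tspan2 (7.21). In WT nerves it was Cd9 (714.2), Cd81 (127.5), Tspan3 (73.0), Cd151 (65.3), Cd63 (29.1), Cd82 (25.9), Tspan15 (13.7), Tspan2 (8.21) and Tspan7 (6.39). Cd9 thus stood first in WT and beside Cd81 in cKO, where the libraries of the pair overlapped. In cKO, Tspan15 and Tspan7 overlapped, as did Tspan7 and Cd82, while in WT no neighbours in the order overlapped.

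Cd9 alone made up 21.0, 12.9 and 20.7% of the FPKM summed over 28 tested tetraspanins in cKO nerves, against 51.9, 53.3 and 54.0% in WT nerves. The share of Cd81 was 18.7, 20 and 19.8% in cKO nerves, against 9.67, 9.38 and 9.41% in WT nerves. The sum itself was 757.8, 660.4 and 719.4 FPKM in cKO nerves, against 1270.3, 1364.5 and 1400.1 FPKM in WT nerves. The share of one gene depends on the level of the others, so a larger share for Cd81 is no higher level of it.

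**Figure D3:**
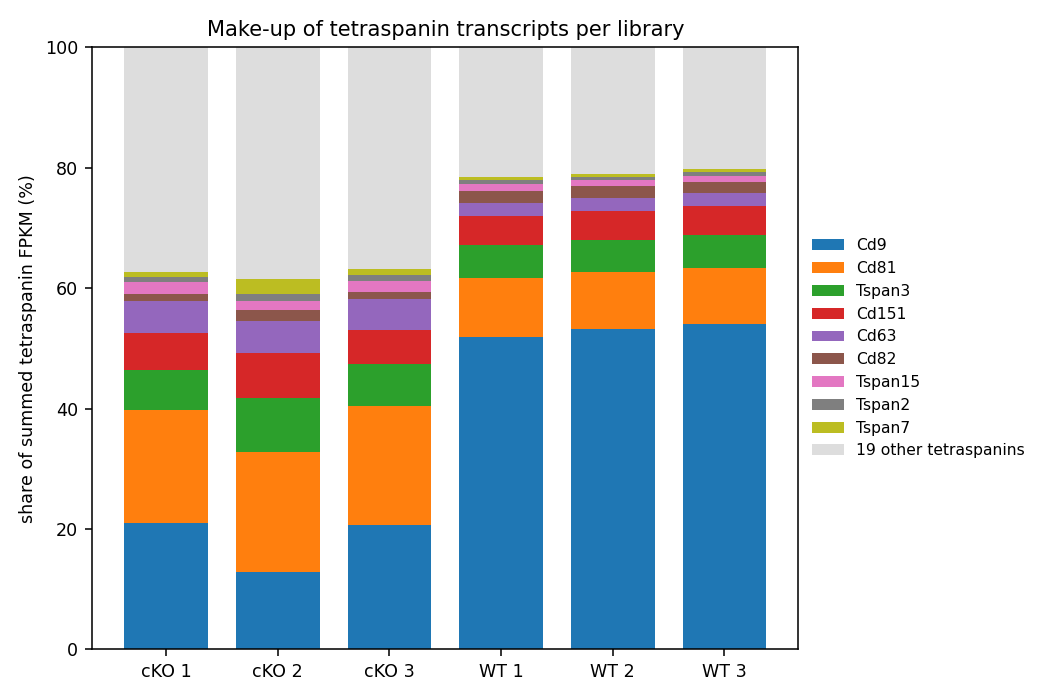
Share of the FPKM summed over 28 tested tetraspanins (vertical axis, percent) taken by each of the 9 tetraspanin genes (colours) and by 19 other tetraspanins together (pale grey), 1 bar per library with cKO left of WT. Cd9 takes 12.9 to 21.0% in cKO bars and 51.9 to 54.0% in WT bars.

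The genes whose pattern over the 6 libraries was nearest to that of Cd9 were Cnp, Mob3b and Cldn19, of 9450 genes ranked. The root mean square distance of their log2 CPM, each centred on its own mean, was 0.070 for Cnp, 0.097 for Mob3b and 0.098 for Cldn19. Cnp encodes a phosphodiesterase of myelinating glia and Cldn19 a claudin of Schwann cell autotypic junctions. Their log2 fold changes were -2.40, -2.34 and -2.42, beside -2.45 for Cd9. These genes were picked for a pattern near that of Cd9. A like fold change and a low cKO replicate 2 follow from that choice. Cnp read 307.7, 177.0 and 318.3 CPM in cKO nerves, against 1401, 1384 and 1459 CPM in WT nerves, with cKO replicate 2 lowest as for Cd9. The Cre driver of the cKO mice is named after Cnp, and whether the driver itself changes this transcript was not tested.

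Markers of cell types in the nerve moved as well. Of 12 Schwann lineage markers, 6 were lower and 0 higher, and the list summed to 0.253 to 0.519% of counts in cKO against 2.18 to 2.51% in WT. S100b, which encodes a calcium sensor common in glia, had a log2 fold change of -2.41, and Sox10, the transcription factor of the lineage, had one of -0.94. The other 6 were not called, among them Ngfr (-0.18), Cdh19 (0.07) and Fabp7 (0.98). For Fabp7, all cKO libraries lay above all WT libraries. Of 10 compact myelin genes, 9 were lower and 0 higher, and the list summed to 0.596 to 1.41% in cKO against 6.0 to 6.40% in WT. In whole nerve, fewer cells of a type and less RNA per cell cannot be told apart. Among other cell types, 4 of 7 erythroid, 4 of 5 mast cell, 3 of 9 fibroblast, 2 of 6 perineurial, 2 of 10 neuronal, 1 of 8 endothelial and 1 of 4 tested B and T cell markers were higher, 1 perineurial marker, Itgb4, was lower, and 0 of 14 skeletal muscle markers were called. Several of these counts changed when cKO replicate 2 was left out. That fit called 17.8% of all genes tested higher and 17.6% lower, against 8.55% and 10.3% with all libraries. Without that library, 0 erythroid, 6 fibroblast, 4 perineurial, 8 neuronal, 2 B and T cell and 3 skeletal muscle markers were called higher. Called lower were 2 perineurial and 1 skeletal muscle markers. Of the Schwann lineage markers 9 were then lower and 2 higher, and of the compact myelin genes 9 lower and 1 higher. The median log2 fold change of the erythroid list was 1.91 with all libraries and 2.09 without cKO replicate 2. That list took 2.29, 0.779 and 0.722% of counts in cKO nerves, against 0.396, 0.342 and 0.271% in WT nerves. The part of these cell type markers in the tetraspanin values was not tested.

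The rest of the tetraspanin family did not move in 1 direction. Of 22 other genes, 19 were tested: 4 were higher, 2 lower and 13 not called in cKO nerves, with a median log2 fold change of 0.11. The shares called over all genes tested were 8.55% higher and 10.3% lower. Higher in cKO nerves were Tspan4 (1.38, edgeR adjusted p = 0.0128), Tspan8 (1.43, 0.034), Cd37 (0.89, 0.0123) and Cd53 (0.66, 0.0314), given as log2 fold change and adjusted p. Tspan8 was scarce, at 2.10, 4.02 and 1.80 CPM in cKO nerves, against 0.78, 1.04 and 1.09 CPM in WT nerves. Without cKO replicate 2, its highest library, the log2 fold change of Tspan8 was 0.996. Cd37 and Cd53 encode tetraspanins of leukocytes, and of the 12 macrophage markers above 9 were higher and 3 not called. The part of macrophages in the Cd37 and Cd53 values was not tested. Tspan4, known from migrasomes, read 119.5, 58.9 and 88.5 CPM in cKO nerves, against 33.6, 34.4 and 34.8 CPM in WT nerves, and 13.4% of its exonic bases overlap Chid1.

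Lower in cKO nerves were Tspan18 (log2 fold change -0.79, edgeR adjusted p = 0.00251) and Tspan17 (-1.19, 0.0132). Tspan18 read 45.9, 39.6 and 46.8 CPM in cKO nerves, against 78.8, 76.1 and 73.9 CPM in WT nerves, and its call held in 6 of 6 fits without 1 library. Tspan17, a TspanC8 protein, read 58.4, 32.5 and 55.0 CPM in cKO nerves, against 111.3, 106.5 and 114.4 CPM in WT nerves. Leaving out any 1 WT library ended the calls of Tspan4, Tspan8, Cd37 and Tspan17, while Cd53 was still called only when cKO replicate 2 was left out.

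Some uncalled tetraspanins depended on cKO replicate 2. Tspan12 read 21.5, 91.3 and 20.2 CPM in cKO nerves, against 25.7, 22.9 and 25.4 CPM in WT nerves, a log2 fold change of 0.84 with all libraries and -0.25 without that library. Tspan9 read 38.6, 92.3 and 45.3 CPM in cKO nerves, against 45.6, 40.8 and 40.3 CPM in WT nerves (0.47 and -0.01). Tspan13 read 49.7, 84.3 and 49.3 CPM in cKO nerves, against 90.6, 94.2 and 93.6 CPM in WT nerves, and was lower without that library (log2 fold change -0.91, edgeR adjusted p = 1.14e-06; -0.60 and 0.101 with all libraries). Tspan11 (log2 fold change 0.33, edgeR adjusted p = 0.337) and Tspan5 (0.11, 0.617) were not called with all libraries but were called higher without that library (Tspan11 0.55, adjusted p = 0.000325; Tspan5 0.26, adjusted p = 0.038). Tspan6 (-0.01), Tspan14 (-0.19) and Tspan31 (-0.16) were called neither with it nor without it, when their log2 fold changes were 0.06, -0.05 and -0.13.

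Proteins that tetraspanins bind or work with were taken as a list of 16 genes, all tested. In cKO nerves 3 were lower, 2 higher and 11 not called, with a median log2 fold change of -0.06. Of all genes tested, 10.3% were called lower and 8.55% higher. Adam10, the sheddase that TspanC8 proteins carry, read 193.0, 164.2 and 217.7 CPM in cKO nerves, against 412.3, 407.0 and 428.6 CPM in WT nerves. No cKO library came near the WT range. Adam10 had a log2 fold change of -1.12 (95% interval -1.41 to -0.83, edgeR adjusted p = 0.00211), and the call held in 6 of 6 fits without 1 library. Of the 6 TspanC8 genes, 5 were tested and 1, Tspan17, was lower.

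Of the integrins, Itgb4, the laminin receptor subunit of myelinating Schwann cells and perineurium, read 45.6, 21.8 and 44.4 CPM in cKO nerves, against 85.4, 75.6 and 73.1 CPM in WT nerves (log2 fold change -1.07, edgeR adjusted p = 0.0466, called in 1 of 6 fits without 1 library). Its partner Itga6 read 748.9, 426.7 and 746.7 CPM in cKO nerves, against 1127, 1086 and 1066 CPM in WT nerves, which was not called (-0.77, adjusted p = 0.0509) but was lower without cKO replicate 2 (-0.55, adjusted p = 0.000219). Itgb1 read 1386, 1192 and 1298 CPM in cKO nerves, against 1362, 1432 and 1347 CPM in WT nerves, with overlapping groups (-0.10, adjusted p = 0.553). Igsf8, the immunoglobulin protein EWI-2 that binds CD9 and CD81, was lower (-0.59, adjusted p = 0.0128), a call lost without WT replicate 1 or 3 (adjusted p up to 0.0645). Hbegf, the growth factor precursor that CD9 binds (0.81, adjusted p = 0.0186), and Timp1, a ligand of CD63 (0.70, adjusted p = 0.0414), were higher. The Hbegf call was lost without any 1 WT library (adjusted p up to 0.0858), and the Timp1 call held only without cKO replicate 2 among the 6 fits without 1 library (adjusted p up to 0.157) and was lost with the replicate block (0.106). The syntenin gene Sdcbp was not called (0.35, adjusted p = 0.132) but was called higher without cKO replicate 2 (0.47, adjusted p = 0.000757).

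**Figure D4:**
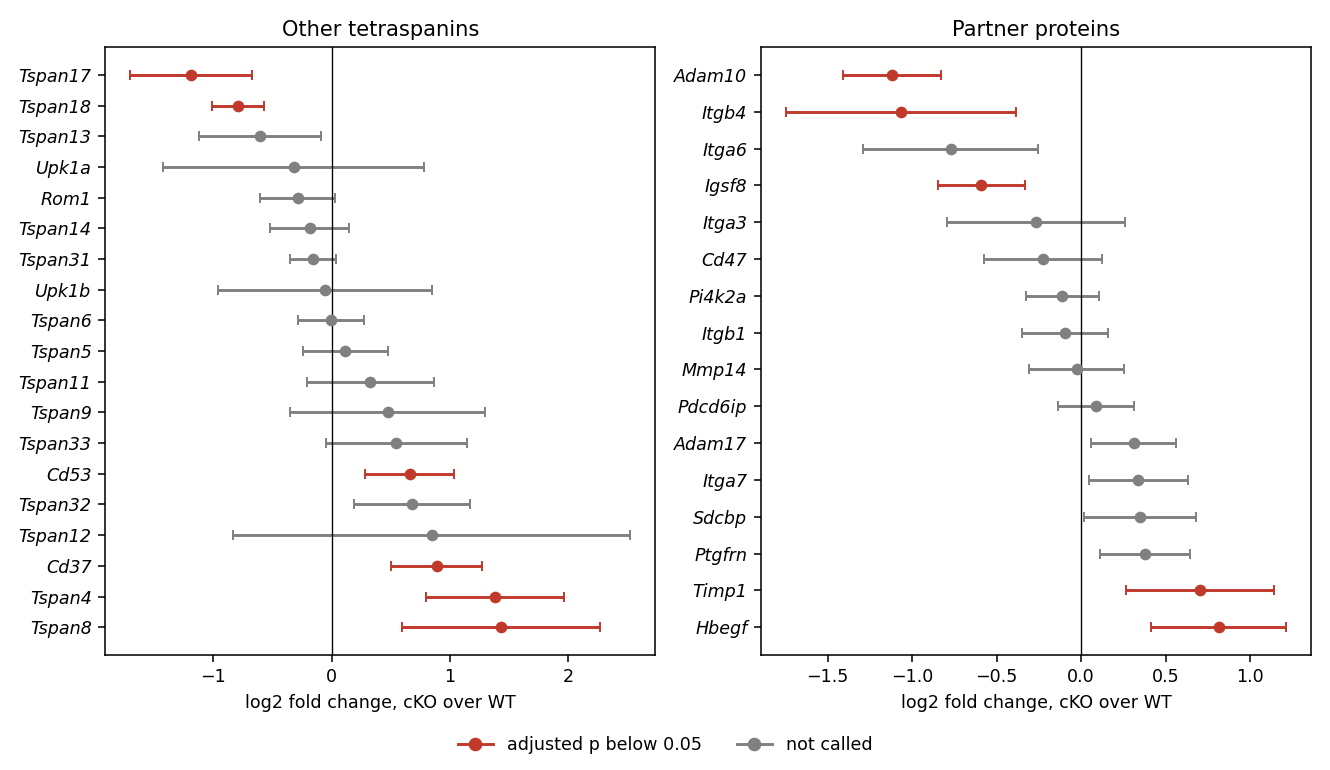
Log2 fold change of cKO over WT (horizontal axis) with its 95% interval for the 19 other tetraspanins tested (left) and the 16 partner genes (right), with called genes in red and uncalled ones in grey. Adam10, Tspan17 and Tspan18 lie below 0 with their whole interval, and Tspan4 lies above 0.

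The number of the 9 tetraspanins called lower varied with the fit, beside the share of all genes that the same fit called lower. It was 4 by DESeq2 (11.5% of all genes), 4 with DESeq2 size factors (10.2%), 4 without the low-count filter (5.45%), 4 with the muscle share as a covariate (17.5%, and 17.1% higher) and 2 with the replicate number as a block (5.9%). It was 3 without cKO replicate 1 (9.24%), 4 without cKO replicate 2 (17.6%; 35.4% in either direction and 17.8% higher), 3 without cKO replicate 3 (6.11%), and 2 without WT replicate 1 (4.3%), 2 (4.26%) or 3 (4.09%). Cd9 and Cd82 were called lower in each of these fits.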

How the data were processed

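The authors deposited 1 table of raw counts of fragments per gene for 6 libraries; per the file headers, featureCounts 1.6.1 counted exons of Ensembl release 95 (GRCm38), with both ends aligned, mapping quality of at least 20 and no strand. Per the submitters' processing notes, Subread 2.0 and DESeq2 1.3 were named too (aligner settings: not given in the sources read). Of 54838 identifiers, 54723 matched a symbol in the gene annotation. No library repeated another: counts of each pair in a group differed beyond sampling noise.

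Counts were tested with edgeR 4.0.16 in R 4.3.3 (filterByExpr with a minimum count of 10, TMM, robust quasi-likelihood F test, 2-sided, 4 residual degrees of freedom), adjusted over 18775 genes and called below 0.05; the script was tested on simulated data. CPM and FPKM were computed here from the deposited counts and exonic lengths. Alternatives were DESeq2 1.42.0, its size factors, no filter, a replicate block, a muscle covariate and leaving out each library. Named genes were the 9 tetraspanins, other tetraspanins called or averaging at least 4 in log2 CPM, called partners with Itgb1, Itga6 and Sdcbp, Actl6a, Cnp, the 3 genes nearest to Cd9, and markers. The members and lists were chosen with earlier results of these data known.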

Additional observations from a re-analysis of the deposited data

How the results depend on the processing

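Of the log2 fold changes of the 9 tetraspanins, 87 stayed on the same side of the threshold under the alternatives, 10 lost the call and 2 gained it. Directions held except for Tspan15, which was never called (-0.13; 0.04 with the muscle covariate and 0.02 without cKO replicate 2). With the replicate block, 2 of the 9 were lower (4 without it), and Cd151 (-0.51, edgeR adjusted p = 0.0559) and Tspan3 (-0.46, adjusted p = 0.0851) were not called. In that fit 1 other tetraspanin and 1 partner were higher, against 4 and 2. The block fit called 5.9% of all genes lower, against 10.3% without the block. Its share of all genes called higher is not given here. Same-numbered libraries did not deviate together (correlations -0.223, -0.231 and -0.0797), so the numbers were not taken as pairs. With the muscle covariate, Cd63 was called higher (0.40), so 1 of the 9 was higher, 7 other tetraspanins were higher and 4 lower, 5 partners were higher, and Tspan12 reversed to -0.36 (adjusted p = 0.0166). The covariate fit called 17.1% of all genes higher and 17.5% lower. Without 1 library at a time, 0 to 1 of the 9 were higher and 2 to 4 lower, 0 to 7 other tetraspanins higher and 1 to 3 lower, and 0 to 5 partners higher and 1 to 4 lower. Log2 fold changes then ranged over 0.26 to 0.39 for Cd63, -0.56 to -0.43 for Cd151 and -0.54 to -0.42 for Tspan3. The share of all genes called lower in these fits ranged over 4.09 to 17.6%. The fit without cKO replicate 2 also called 17.8% of all genes higher. The cause of these changes was not tested. With 3 libraries a group, a gene that was not called is not shown to be the same in both genotypes.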

Other observations

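Some tetraspanin genes are neighbours. Tspan18 and Cd82, both lower in cKO nerves, lie 84.6 kb apart on the minus strand of chromosome 2. Cd151, lower in cKO nerves, and Tspan4, higher in cKO nerves, lie 3.77 kb apart on the plus strand of chromosome 7. Tspan32 and Cd81 lie 33.1 kb apart on chromosome 7, and Tspan11 and Tspan9 lie 7.42 kb apart on chromosome 6, and none of these was called. These pairs were noticed after the values were seen, and no test was made of position.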
